A study of Mus musculus with 22 samples.

Results

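DNA replication machinery is described here as 41 genes, taken from a list of licensing, helicase, polymerase, clamp and maturation factors, in single germinal center B cells of mouse spleen. All 41 listed genes were present among the 14407 genes of the deposited table. The cells came from male C57BL/6 mice, given as 8 weeks old, that were immunized into the peritoneum with 100 μg of NP-KLH (a hapten coupled to a carrier protein) or of ovalbumin (OVA), each in alum with lipopolysaccharide. NP 1 and NP 2 are libraries of germinal center B cells (live, B220+, Fas high, GL-7 high) that also bound NP, sorted on day 13. OVA 1 comes from OVA-immunized mice and holds total germinal center B cells, sorted without an antigen gate, on a day that is not given in the sources used here. Antigen and gate therefore cannot be told apart, and OVA stands on 1 library. The labels do not say whether the 2 NP libraries came from separate animals or how many mice were pooled. For classes within libraries, the p-values below reflect just how far class differences varied between these libraries, with counting error. For NP against OVA they reflect just the spread between the libraries. Either spread may be technical. The tests moderate the spread of each gene with that of the other genes tested. A p-value or standard error therefore does not measure how well the libraries agreed for that gene alone. The bulk heavy-chain libraries of the series were not used here.

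Replication starts from origins that the origin recognition complex (Orc genes) marks. In G1 phase Cdc6 and Cdt1 load onto them the ring of Mcm2 to Mcm7, the core of the replicative helicase, a step called licensing. In S phase Cdc45, the GINS proteins and Mcm10 turn that ring into an active helicase, the polymerases copy the strands, and the PCNA clamp, placed by the Rfc clamp loader, holds the polymerases on DNA. In germinal centers B cells divide mainly in the dark zone, where Cxcr4 is high, and test their receptors in the light zone, where Cd83 is high. Myc marks light zone cells that received help, and Ccnb1 encodes cyclin B1 of G2 and M phase.

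Promoter windows of 5 members are shown first, because their transcripts carry the differences described below and because they differ in the short words bound by E2F factors, the activators of many S phase genes. Windows run from 250 bases before to 50 bases after the transcript start and come from RefSeq on GRCm38.p6, the assembly behind mm10. They are printed 5′ to 3′ on the strand of the gene. Capitals mark each match to TTTCCCGC, TTTGGCGC, TTTCGCGC or TTTGCCGC on either strand.
Mcm2 (chr6:88898731-88899030, minus strand): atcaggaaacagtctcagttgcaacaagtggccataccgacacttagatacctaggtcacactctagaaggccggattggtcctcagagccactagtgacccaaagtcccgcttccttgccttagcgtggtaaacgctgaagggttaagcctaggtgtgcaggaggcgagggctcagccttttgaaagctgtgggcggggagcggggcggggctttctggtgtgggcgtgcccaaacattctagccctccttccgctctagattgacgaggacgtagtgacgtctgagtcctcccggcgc
Mcm5 (chr8:75109259-75109558, plus strand): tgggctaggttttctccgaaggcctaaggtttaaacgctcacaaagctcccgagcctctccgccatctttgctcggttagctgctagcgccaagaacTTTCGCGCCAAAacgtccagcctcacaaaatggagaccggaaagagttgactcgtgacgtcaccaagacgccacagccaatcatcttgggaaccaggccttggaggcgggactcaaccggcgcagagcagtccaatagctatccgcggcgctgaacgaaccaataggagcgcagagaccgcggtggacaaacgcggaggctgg
Mcm6 (chr1:128359656-128359955, minus strand): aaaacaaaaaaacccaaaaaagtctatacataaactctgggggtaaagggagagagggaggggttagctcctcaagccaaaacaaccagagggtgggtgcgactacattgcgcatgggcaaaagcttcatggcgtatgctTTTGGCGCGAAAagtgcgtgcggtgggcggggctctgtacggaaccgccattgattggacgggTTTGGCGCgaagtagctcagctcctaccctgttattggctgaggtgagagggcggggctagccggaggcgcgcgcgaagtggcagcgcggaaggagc
Mcm7 (chr5:138171834-138172133, minus strand): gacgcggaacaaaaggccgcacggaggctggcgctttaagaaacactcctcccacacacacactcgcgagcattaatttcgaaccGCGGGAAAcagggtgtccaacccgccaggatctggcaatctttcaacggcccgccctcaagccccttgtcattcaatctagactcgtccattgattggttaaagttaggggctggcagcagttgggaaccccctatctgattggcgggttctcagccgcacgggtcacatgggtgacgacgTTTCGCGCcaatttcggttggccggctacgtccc
Rpa3 (chr6:8259092-8259391, minus strand): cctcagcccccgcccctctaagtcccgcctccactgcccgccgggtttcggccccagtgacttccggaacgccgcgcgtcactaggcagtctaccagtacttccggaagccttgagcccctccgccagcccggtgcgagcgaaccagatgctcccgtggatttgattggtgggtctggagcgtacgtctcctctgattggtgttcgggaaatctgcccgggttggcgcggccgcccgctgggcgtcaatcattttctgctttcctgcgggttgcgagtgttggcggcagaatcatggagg
Mcm5 held 2 overlapping matches at 153 and 149 bases before the start, on opposite strands. Mcm6 held 3, of which the pair at 110 and 106 bases before the start overlapped on opposite strands and the other lay 47 bases before it. Mcm7 held 2, at 165 bases before and at base 16 after the start, in the window with most matches of the 2 that RefSeq lists for it. The windows of Mcm2 and Rpa3 held none of these words. Of the 41 members, 34 had a window, and 16 of the 34 (47.1%) held at least 1 E2F word, against 704 of 27025 genes with a window (2.6%). CCAAT, on either strand, stood in windows of 22 of the 34 members (64.7%) and of 41.1% of all genes, and TTTGAA in 5 of the 34 (14.7%) and 20.2% of all genes.

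The gene table held 3765, 2104 and 3004 cells of NP 1, NP 2 and OVA 1, with 20533741, 16161435 and 21412501 UMIs (unique molecular identifiers, 1 for each captured transcript). Cells with at least 500 genes and at most 10% mitochondrial UMIs numbered 2600, 1756 and 2385. Each was thinned at random to 2500 UMIs so that depth could not set which cells showed a gene, which left out 262, 154 and 231 shallower cells and kept 2338, 1602 and 2154. Levels below are CPM, the UMIs of a gene per 1000000 summed thinned UMIs without those of immunoglobulin genes. The summed markers of germinal center B cells (Fas, Bcl6, Mef2b, S1pr2) stood at 1155, 1047 and 987 CPM and those of B cells at 6568, 7093 and 7189, against 7.27, 37.2 and 53.3 for T cells and 32.0, 735 and 1530 for myeloid cells. Libraries shared 31 cell barcodes, and no doublet caller was run.

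All 41 members together took 3806 CPM in NP 1, 3541 in NP 2 and 3341 in OVA 1. A library counts 1 molecule by its 5′ end, so levels were not divided by gene length. The helicase core led, with a summed level of 1194, 1166 and 1107 CPM for its 6 genes, followed by the clamp and its loader with 1043, 910 and 882 for 6 genes. Single-strand binding (Rpa1 to Rpa3), the trimer that coats unwound DNA, summed to 315, 303 and 271. The 6 origin recognition genes summed to 219, 214 and 210, and the licensing pair Cdc6 and Cdt1 to only 108, 89.8 and 86.8. Helicase activation (Cdc45, Mcm10 and the 4 Gins genes) summed to 168, 172 and 145. Polymerase alpha with primase, which lays the RNA-DNA primers, summed to 240, 188 and 185, and polymerases delta and epsilon, which extend them, to 259, 244 and 236. The nuclease and ligase that finish lagging strand fragments, Fen1 and Lig1, summed to 249.5, 246 and 209.5.

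**Figure D1:**
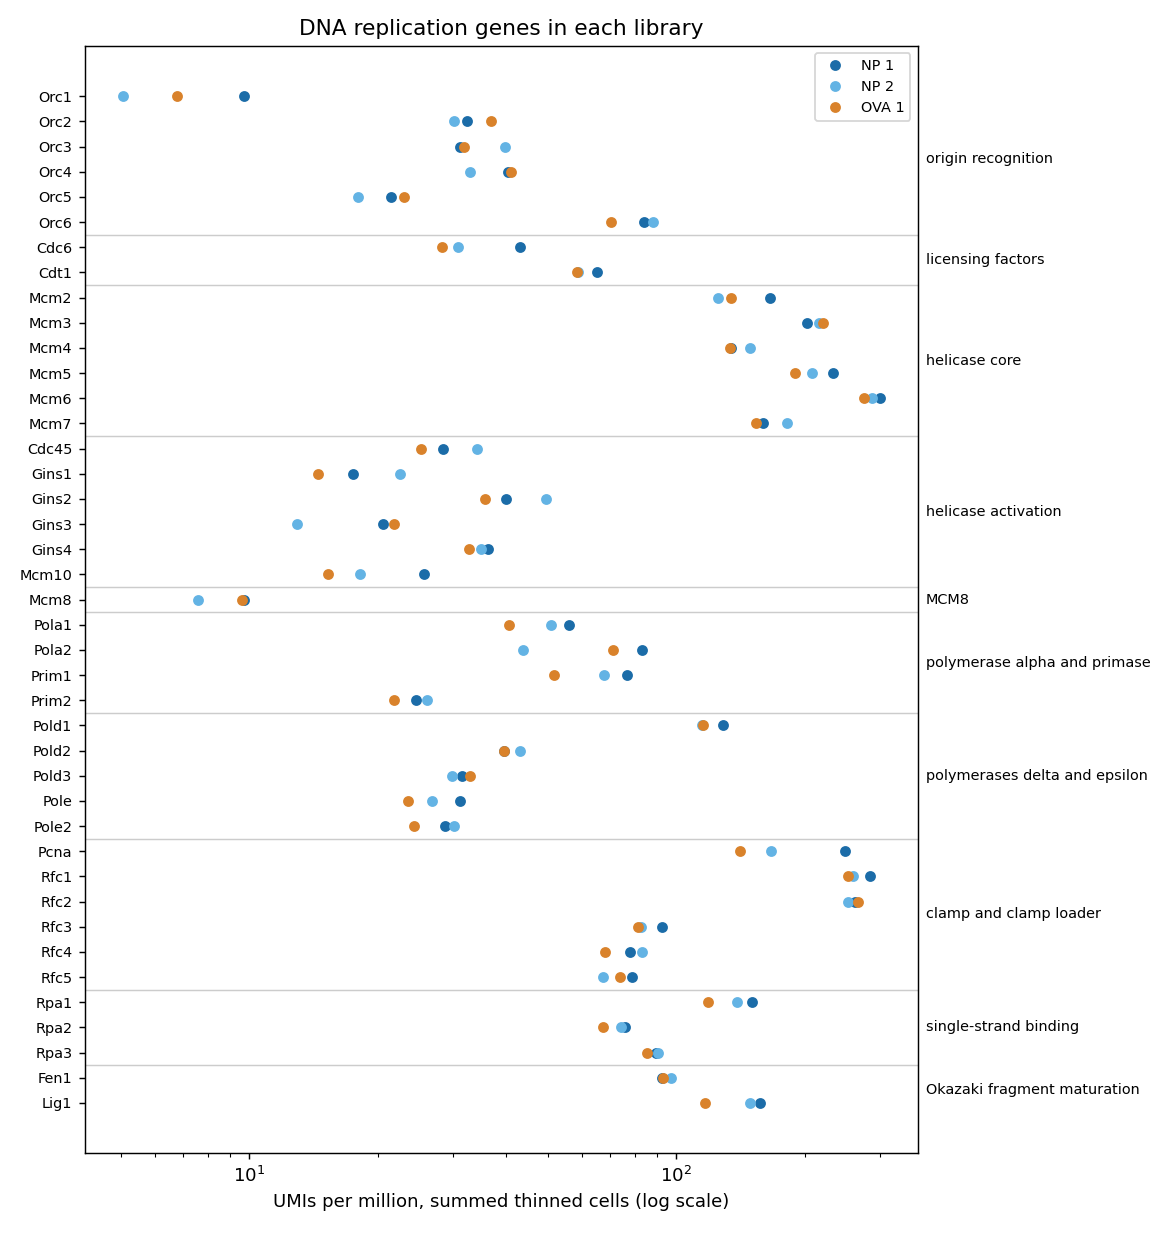
Level of each of the 41 replication genes (CPM in summed thinned cells, log axis) in NP 1, NP 2 and OVA 1, grouped by role; each point is 1 library, with no error of its own. Helicase core genes, Rfc1, Rfc2 and Pcna lie to the right, and Orc1 and Mcm8 lie farthest to the left.

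Single members spread widely within their roles. Over the 3 libraries, 12 members averaged above 100 CPM and 10 below 30. Mcm6 was the highest, at 299.5, 287 and 275 CPM, followed by the clamp loader subunits Rfc1 (284, 259 and 252) and Rfc2 (262, 252 and 266). The range of Rfc1 overlapped those of both neighbours, so its place between them is not resolved, while Mcm6 and Rfc2 did not overlap. Mcm3, Mcm5 and Pcna came next, with means of 213 ± 9.8, 210 ± 21.5 and 185 ± 55.7 CPM (SD, n = 3 libraries), which also overlapped. Pcna had the largest spread of these, at 248 CPM in NP 1, 166 in NP 2 and 141 in OVA 1. The lowest members were Orc1, the largest subunit of the origin recognition complex, at 9.7, 5.1 and 6.8 CPM, and Mcm8, a relative of the helicase genes known for its role in recombination, at 9.7, 7.6 and 9.6. Within the origin recognition complex Orc6 (84.1, 88.0 and 70.4 CPM) stood above Orc2 to Orc5, which ranged from 18.0 to 41.0, in every library. Within GINS the highest was Gins2, at 40.0, 49.6 and 35.6.

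A UMI of Mcm6 was found in 43.6% (95% interval 41.6 to 45.6), 42.1% (39.7 to 44.6) and 38.9% (36.8 to 41.0) of thinned cells, and one of Pcna in 37.0% (35.0 to 39.0), 27.9% (25.7 to 30.2) and 25.6% (23.7 to 27.5). Intervals are exact Clopper-Pearson intervals and cover counting error only. In the 4, 9 and 17 cells marked by myeloid genes, 1, 1 and 2 cells held a Mcm6 UMI and 0, 1 and 2 a Pcna UMI. Their median depth before thinning was 6385.5, 8874 and 6550 UMIs, against 6373, 8685.5 and 8052.5 for all cells. All members together stood at 1105, 1245 and 944 CPM in them. These few cells do not resolve how much free RNA adds to the shares.

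Detection of the members was compared between cells with and without a UMI of Mcm5, Mcm6 or Pcna. Among cells with a Mcm5 UMI, 38 of the 40 other members were detected in a larger share of cells than among cells without one, in all 3 libraries, and for partners Mcm6 and Pcna it was 37 and 39 of 40. Cdc6, the ATPase that helps to load the helicase, showed the largest ratio of shares with partner Mcm5 in both NP libraries, and Mcm10 did in OVA 1, while with the other 2 partners other members led in some libraries. Cdc6 was seen in 17.5%, 14.9% and 11.7% of Mcm5-positive cells, against 4.17%, 3.17% and 3.04% of Mcm5-negative cells. Orc4, a subunit of the origin recognition complex, showed almost no such link, with 10.2%, 7.36% and 9.53% against 9.35%, 7.93% and 9.25%. Across cells, the summed UMIs of the helicase core and of the clamp with its loader had a Pearson r of 0.51, 0.55 and 0.55 (n = 2338, 1602 and 2154 cells), and the core with the origin recognition genes 0.23, 0.27 and 0.26. The core and a list of 25 G2 and M phase genes had a Pearson r of only 0.12, 0.10 and 0.11, with a Spearman rho of 0.33, 0.33 and 0.36. The cells of a library share its preparation, all were thinned to 1 depth, and these values are a description. Shares in partner-positive cells were computed for members only. Whether other genes do the same is therefore not known, and the counts show no trait particular to the members.

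Ccnb1-positive cells, with at least 1 Ccnb1 UMI after thinning, were compared with Ccnb1-negative cells to see how replication transcripts stood in cells marked for G2 and M phase. They numbered 181, 138 and 161 in NP 1, NP 2 and OVA 1 and the Ccnb1-negative cells 2157, 1464 and 1993, and the counts of each class were summed per library. In sum the members stood close in both classes: the summed level of all 41 was 3689, 3497 and 3630 CPM in Ccnb1-positive cells and 3816, 3545 and 3318 in Ccnb1-negative cells, and the ranges overlapped. By the quasi-likelihood test of edgeR, fitted with the library as block and read at an adjusted p under 0.05, 2 members were higher and 1 was lower. That is 3 of 41, where 11.6% of the 9192 genes tested passed (5.96% higher and 5.65% lower). The median log2 fold change of the members was 0.03, against −0.02 for all genes tested.

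Rpa3, the smallest subunit of the single-strand binding trimer, had 141, 111 and 131 CPM in Ccnb1-positive cells, against 85.2, 88.8 and 81.6 in Ccnb1-negative cells. The groups did not overlap, and the log2 fold change was 0.56 ± 0.14 (SE, adjusted p = 0.0021 by edgeR). The clamp loader subunit Rfc5 had 114, 76.2 and 106 CPM in Ccnb1-positive cells and 75.8, 66.4 and 71.2 in Ccnb1-negative cells, again without overlap, for 0.44 ± 0.15 (adjusted p = 0.045, edgeR). Mcm6 was lower, with 192, 284 and 254 CPM in Ccnb1-positive cells against 309, 287 and 277 in Ccnb1-negative cells, and a log2 fold change of −0.32 ± 0.10 (adjusted p = 0.027, edgeR). The ranges of Mcm6 overlapped, since NP 2 differed by only −0.01 on the log2 scale and NP 1 by −0.68. Without NP 1 the Mcm6 value was −0.13 (adjusted p = 0.68, edgeR). In another random thinning Mcm6 did not pass (−0.25 ± 0.10, adjusted p = 0.0885, edgeR), and Mcm3 did (−0.46 ± 0.12, adjusted p = 0.0021, edgeR). No member passed without NP 1 (5 at an unadjusted p under 0.05 by edgeR), nor by DESeq2 (2 at that level), nor with stricter cell filters of at least 1000 genes and at most 5% mitochondrial UMIs. Of all genes tested, 724 of 8912, 432 of 9192 and 755 of 8226 passed in these settings, in that order. Over all alternative settings Rpa3 and Mcm6 each passed in 8 of 13 and Rfc5 in only 5 of 13. The log2 fold change of Rfc5 ranged from 0.13 to 0.63 over them. Its lowest value came with 2 or more Ccnb1 UMIs set against 0 (0.13 ± 0.34, adjusted p = 0.94, edgeR).

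Of the helicase core, 5 of 6 genes had a negative sign, with a median log2 fold change of −0.20. The licensing factors did not move together, and neither passed. Cdc6 stood at −0.46 ± 0.26 and was lower in all 3 libraries. Cdt1 stood at −0.01 ± 0.18, with log2 ratios of −0.44, 0.07 and 0.45 in NP 1, NP 2 and OVA 1. Fen1, the flap nuclease, stood at 109, 129 and 131 CPM in Ccnb1-positive cells and 91.2, 94.4 and 89.9 in Ccnb1-negative cells, without overlap, and missed the threshold (0.37 ± 0.14, adjusted p = 0.058 by edgeR). Pcna was 239, 147 and 131 CPM in Ccnb1-positive cells against 249, 168 and 142 in Ccnb1-negative cells (−0.15 ± 0.11, adjusted p = 0.48 by edgeR). In all, 10 members were higher and 7 lower in all 3 libraries, and of all genes tested 22.0% and 20.8% were.

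The picture changed with the number of Ccnb1 UMIs. Of the Ccnb1-positive cells, 143, 110 and 137 had exactly 1 Ccnb1 UMI and 38, 28 and 24 had 2 or more. The helicase core summed to 1210, 1174 and 1108 CPM at 0 UMIs, to 1096, 1170 and 1170 at 1 UMI and to 627, 736 and 624 at 2 or more. Cdc6 stood at 44.1, 31.0 and 28.9 CPM at 0 UMIs, at 33.9, 33.1 and 23.6 at 1 UMI, and at 10.6, 14.4 and 0 at 2 or more, where each library held very few Cdc6 UMIs. Rpa3, by contrast, stood at 127, 116 and 219 CPM in cells with 2 or more. The other licensing factor, Cdt1, stood at 66.6, 58.7 and 57.0 CPM at 0 UMIs and at 21.2, 43.3 and 134.8 at 2 or more. It was thus lower in both NP libraries and higher in OVA 1, but also on very few Cdt1 UMIs at 2 or more, so the contrast between libraries is not resolved.

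With 2 or more UMIs set against 0, 6 members were lower and 0 higher by edgeR: Mcm2, Mcm3, Mcm5, Mcm6, Mcm7 and Pcna. Their log2 fold changes were −1.30 ± 0.33, −1.20 ± 0.27, −1.06 ± 0.27, −1.05 ± 0.24, −0.87 ± 0.29 and −1.24 ± 0.29, while the median of all genes tested lay at −0.25, and 3.03% of 9009 genes were lower in that comparison. With all UMIs of the same cells kept in place of thinned counts, 11 members passed by edgeR, where 24.6% of 10637 genes did. Rpa3, Rfc5, Rfc4 and Fen1 were then higher, and Mcm2, Mcm3, Mcm5, Mcm6, Rfc2, Pcna and Lig1 lower, with Mcm6 at −0.30 ± 0.06 and Pcna at −0.32 ± 0.07. Pcna, Mcm2, Mcm3 and Mcm5 passed under both of these settings but not in the thinned comparison of Ccnb1-positive with Ccnb1-negative cells.

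**Figure D2:**
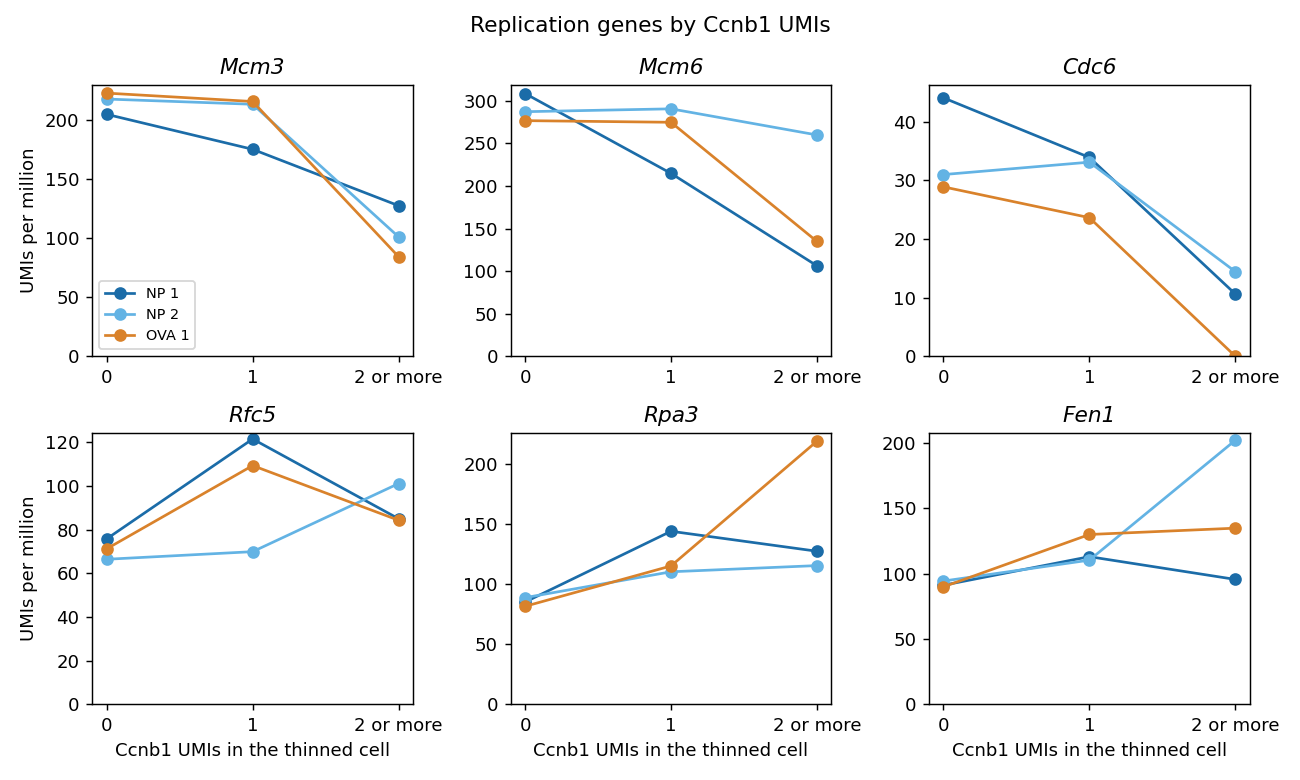
Level of 6 replication genes (CPM, from 0) in thinned cells with 0, 1, and 2 or more Ccnb1 UMIs; each line is 1 library. Mcm3, Mcm6 and Cdc6 are lowest at 2 or more UMIs in all 3 libraries, and Rpa3 is higher at 1 UMI and at 2 or more than at 0.

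Other genes moved far more in Ccnb1-positive cells. All 25 of 25 G2 and M phase genes were higher by edgeR, with a median log2 fold change of 2.04. Top2a stands on this list and on that of other replication genes, and it counts in both here and below. Of 49 other replication genes 7 were higher and 0 lower, led by Ccna2 (cyclin A2, 1.94 ± 0.12), Dbf4 (the activator of the origin-firing kinase CDC7, 1.50 ± 0.14), the histone chaperone gene Asf1b (0.79 ± 0.13), Top2a (topoisomerase II alpha, 0.62 ± 0.10) and Rrm1 (a ribonucleotide reductase subunit, 0.56 ± 0.12). Ccnb1-positive cells were deeper before thinning, with medians of 8425, 11694.5 and 11575 UMIs, against 6206, 8373 and 7869 in Ccnb1-negative cells, and the part of this depth in the results was not tested. Myeloid marker UMIs stood at 0, 0 and 3079 CPM in Ccnb1-positive cells, against 34.7, 804 and 1405 in Ccnb1-negative cells, and at 0, 0 and 20512 in cells with 2 or more Ccnb1 UMIs. Without cells of other types and cells with more than 1 productive heavy chain, Rpa3, Rfc5 and Mcm6 still passed by edgeR, and Fen1 passed too. That is 4 of 41 members, where 1120 of 9119 genes passed.

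Myc-positive cells were compared with Myc-negative cells because Myc is induced in selected cells that go on to divide. There were 145, 104 and 190 Myc-positive cells against 2193, 1498 and 1964 Myc-negative cells. None of the 41 members passed edgeR's test, where 1.77% of 9194 genes did. By edgeR 3 members had an unadjusted p under 0.05, and DESeq2 called 0, with 0 under that level. The members had a median log2 fold change of 0.11, and all genes tested one of −0.02. A difference of this size was not resolved by 3 libraries, and its sign depended on the class. With 2 or more Myc UMIs set against 0, in only 42, 16 and 57 cells, 36 of the 41 members had a negative sign, with a median of −0.31 where all genes tested had −0.19. Mcm7 was then lower by edgeR (−1.04 ± 0.30, adjusted p = 0.034), at 86.4, 152 and 63.9 CPM in cells with 2 or more Myc UMIs against 160, 180 and 155 in Myc-negative cells, and it was the 1 member that passed, where 0.955% of 9108 genes were lower.

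The libraries did not move together. The helicase core summed to 1475, 1490 and 1015 CPM in Myc-positive cells and to 1175, 1143 and 1116 in Myc-negative cells, so it was higher in both NP libraries and lower in OVA 1. Mcm6 followed that pattern, with 359, 389 and 258 CPM in Myc-positive cells against 296, 280 and 277 in Myc-negative cells (0.19 ± 0.10, adjusted p = 0.54 by edgeR). Pcna was higher in all 3 libraries, with 278, 218 and 162 CPM in Myc-positive cells against 246, 163 and 139 in Myc-negative cells (0.25 ± 0.12, adjusted p = 0.45 by edgeR), and the groups overlapped. The licensing factor Cdt1 went the other way, with 61.2, 50.6 and 81.1 CPM against 65.5, 59.5 and 56.4 in Myc-negative cells. Rpa2, another subunit of the single-strand binding trimer, had 94.6, 113 and 70.4 CPM against 74.3, 71.4 and 66.9 in Myc-negative cells (0.33 ± 0.17). It passed with all UMIs kept, at 0.34 ± 0.09 (adjusted p = 0.017 by edgeR), and was the 1 member that did, where 6.08% of 10719 genes passed. None of the 49 other replication genes passed.

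Cd83-high cells, with at least 2 Cd83 UMIs and no Cxcr4 UMI, were set against Cxcr4-high cells, with the reverse, as stand-ins for light and dark zone. The classes held 465, 292 and 430 Cd83-high cells but only 96, 20 and 25 Cxcr4-high cells, and 1777, 1290 and 1699 cells fell in neither. After the filter on low counts 36 of the 41 members could be tested, without Orc1, Gins1, Gins3, Mcm8 and Mcm10. None passed edgeR's test, where 5.55% of 6248 genes did; 2 members (Orc2 and Rfc5) had an unadjusted p under 0.05, and DESeq2 called 0, with 0 under that level. The members had a median log2 fold change of 0.02 and all genes tested one of 0.04.

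All members together stood at 2965, 3119 and 2709 CPM in Cd83-high cells and at 3211, 3164 and 3047 in Cxcr4-high cells, both below the level of all cells in the same library. Mcm6 was lower in Cd83-high cells of all 3 libraries, with 219, 233 and 206 CPM against 274, 302 and 227 in Cxcr4-high cells (−0.20 ± 0.21, adjusted p = 0.73 by edgeR). Pcna went the other way in all 3, with 179, 135 and 123 CPM against 160, 101 and 113 in Cxcr4-high cells (0.27 ± 0.25, adjusted p = 0.69 by edgeR). Cdc45, part of the active helicase, had 16.5, 27.8 and 21.7 CPM in Cd83-high cells against 29.5, 40.3 and 48.6 in Cxcr4-high cells (−0.76 ± 0.57, adjusted p = 0.58 by edgeR), without overlap but on very few UMIs. In all, 3 of the 36 members were higher and 9 lower in all 3 libraries, and of all genes tested 18.1% and 17.9% were.

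The same cells differed clearly in later cell cycle genes. Of 24 G2 and M phase genes 15 were lower in Cd83-high cells and 0 higher by edgeR, with a median log2 fold change of −1.41. Among 39 other replication genes only Top2a (−0.86 ± 0.20) and Top1 (topoisomerase I, −0.68 ± 0.16) passed, both lower. Top2a is also among the 15 G2 and M phase genes. Myeloid marker UMIs stood at 0, 2.78 and 37.7 CPM in Cd83-high cells, against 0, 1229 and 6353 in Cxcr4-high cells, and 0 members passed without the marked cells. With 1 UMI in place of 2, a threshold chosen after seeing how few cells had 2 Cxcr4 UMIs, 0 of 41 members passed, where 9.61% of 8448 genes did, and 5 members had an unadjusted p under 0.05 by edgeR. Whether the Ccnb1 difference itself differed between the zone classes was tested with an interaction term. Only Mcm5, Mcm6, Rfc1 and Rfc2 passed the filter, and 0 of 4 passed edgeR's test, where 0.0% of 933 genes did, with 1 unadjusted p under 0.05 by edgeR and 1 by DESeq2. The Cxcr4-high, Ccnb1-positive class held 4, 2 and 2 cells, too few to resolve a difference.

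**Figure D3:**
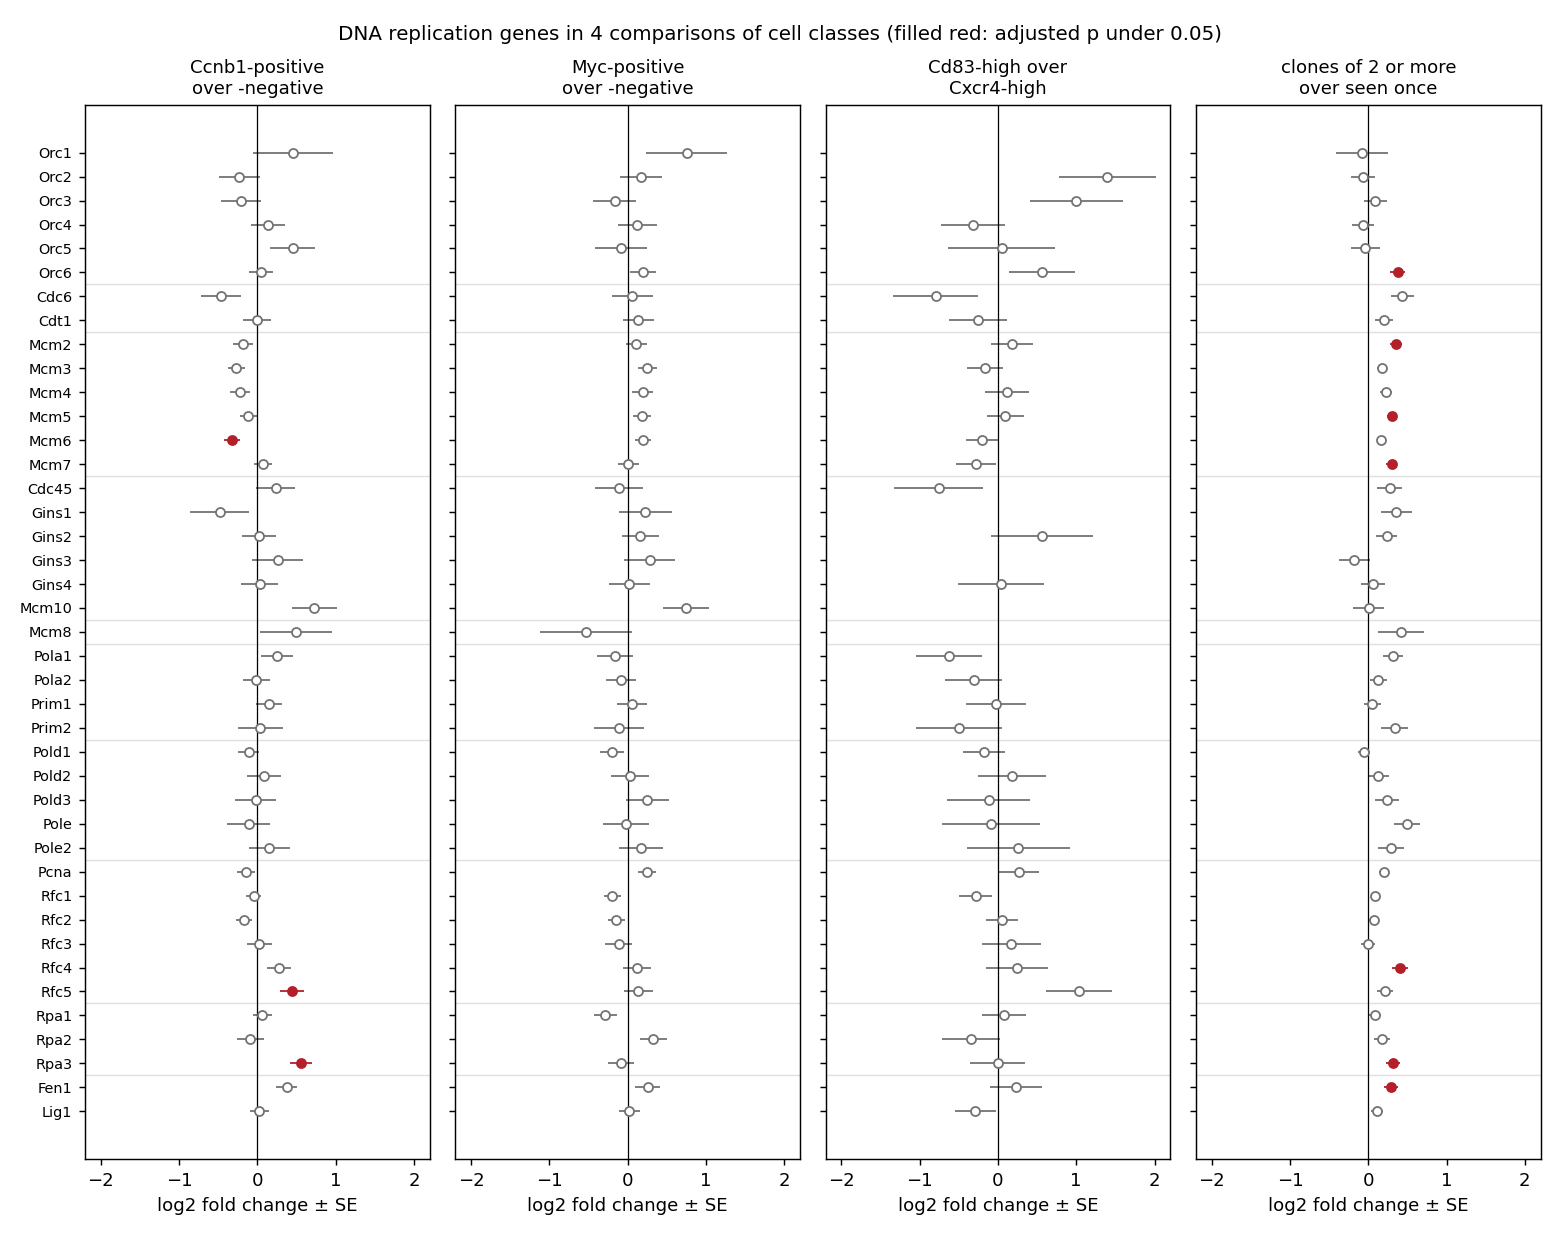
log2 fold change ± SE (edgeR, library as a block) of the replication genes in 4 comparisons of cell classes, from 3 libraries each; filled points have an adjusted p under 0.05, and members below the low-count filter have no point. Passing points are Mcm6, Rfc5 and Rpa3 in the first panel and 7 members, all to the right of 0, in the last.

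In expanded clones 7 of the 41 members were higher, among them Mcm2, Mcm5 and Mcm7 of the helicase core, and the other 34 did not pass. DESeq2 called 0 members, with 6 at an unadjusted p under 0.05, and without NP 2 edgeR called 0, with 14 at that level. Of all genes tested, DESeq2 called 56 of 8987, and without NP 2 edgeR called 51 of 8863. A clone here means cells of 1 library whose productive heavy chains share V and J genes and the CDR3 nucleotides. Cells of clones of 2 or more numbered 744, 565 and 991, against 854, 793 and 796 cells seen once. The former were deeper before thinning, with medians of 7604, 9518 and 8889 UMIs against 6811.5, 8630 and 8052.5. The part of this depth in the results was not tested. By edgeR 7 members were higher and 0 lower, where 3.12% of the 8987 genes tested passed (1.07% higher and 2.05% lower). The median log2 fold change was 0.20 for the members and 0.00 for all genes tested. In all 3 libraries 22 of 41 members were higher and 1 was lower, where 19.0% and 14.2% of all genes tested were.

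The helicase core held 3 of the 7. Mcm2 had 183, 154 and 159 CPM in clones of 2 or more, against 155, 110 and 116 in cells seen once (0.36 ± 0.08, adjusted p = 0.000287 by edgeR). Mcm5 had 271.5, 239.5 and 202 CPM in expanded clones against 194, 211 and 166 in cells seen once (0.30 ± 0.07, adjusted p = 0.000385, edgeR). For Mcm7 the values were 194, 212 and 172 CPM in expanded clones and 149, 178 and 136 in cells seen once (0.30 ± 0.07, adjusted p = 0.0020, edgeR). Each of these was higher in all 3 libraries when expanded clones were set against the cells seen once of the same library, but the ranges over libraries overlapped. All 6 core genes had a positive sign, and the core summed to 1347, 1332 and 1236 CPM in expanded clones and to 1134, 1154 and 979 in cells seen once, without overlap.

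The other 4 came from different roles. Rfc4, a small clamp loader subunit, had 98.5, 104 and 81.0 CPM in expanded clones against 75.9, 77.2 and 57.7 in cells seen once, without overlap (0.40 ± 0.10, adjusted p = 0.0031, edgeR). Orc6 had 95.2, 105 and 85.5 CPM in expanded clones and 76.4, 81.8 and 59.2 in cells seen once, also without overlap (0.37 ± 0.10, adjusted p = 0.0074, edgeR). Rpa3 had 108, 121 and 94.0 CPM in expanded clones against 96.3, 76.2 and 79.1 in cells seen once (0.32 ± 0.09, adjusted p = 0.022, edgeR), and most of that came from NP 2. Fen1 had 103, 116 and 114 CPM in expanded clones and 91.5, 94.1 and 82.2 in cells seen once, without overlap (0.29 ± 0.09, adjusted p = 0.035, edgeR). Of the windows printed above, those of Mcm5 and Mcm7 hold E2F words, and those of Mcm2 and Rpa3 do not. The windows of Rfc4 and Orc6 and both windows of Fen1, which are not printed, hold none either.

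The licensing factors were higher in all 3 libraries without passing in this comparison, though Cdc6 passed among Ccnb1-negative cells alone, as given below. Cdc6 had 52.2, 38.0 and 34.8 CPM in expanded clones against 39.8, 29.1 and 22.5 in cells seen once (0.43 ± 0.15, adjusted p = 0.081, edgeR), and Cdt1 had 74.5, 62.4 and 61.3 against 59.3, 56.2 and 54.6 in cells seen once (0.20 ± 0.11, adjusted p = 0.48, edgeR). The clamp gene Pcna stood at 272, 198 and 160 CPM in expanded clones and 259, 155 and 126 in cells seen once (0.20 ± 0.07, adjusted p = 0.073, edgeR). Pcna passed in another random thinning (0.28 ± 0.07, adjusted p = 0.0089, edgeR) and without NP 1 (0.32 ± 0.09, adjusted p = 0.0355, edgeR). With all UMIs kept it did not (0.14 ± 0.04, adjusted p = 0.061, edgeR). Among polymerase genes, 0 of 9 passed, and 8 of them had a positive sign. Pole, the catalytic subunit of polymerase epsilon, had the largest fold of all 41 members, with 37.0, 34.4 and 24.9 CPM in expanded clones against 26.1, 23.0 and 17.9 in cells seen once (0.50 ± 0.17, adjusted p = 0.084, edgeR). It was higher in all 3 libraries, with ranges that overlapped, and it passed with all UMIs kept (0.27 ± 0.08, adjusted p = 0.044, edgeR). Prim2, the large primase subunit, stood at 0.34 ± 0.17 (adjusted p = 0.40, edgeR) and passed in another random thinning (0.61 ± 0.17, adjusted p = 0.030, edgeR). Pold1, the catalytic subunit of polymerase delta and the 1 polymerase gene with a negative sign, had 131, 120 and 117 CPM in expanded clones and 140, 112 and 122 in cells seen once (−0.06 ± 0.08, adjusted p = 0.87, edgeR). Of the origin recognition genes only Orc6 had a fold above 0.1 on the log2 scale, the other 5 lying between −0.08 and 0.09.

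The size of these differences depended on which UMIs were counted. With all UMIs kept, 7 members passed by edgeR, where 4.27% of 10437 genes did, of which Mcm5, Mcm7, Orc6, Rfc4 and Rpa3 were among the first 7, with log2 fold changes of 0.17, 0.17, 0.19, 0.23 and 0.21, and Mcm2 stood at 0.13 (adjusted p = 0.066). In another random thinning 5 members passed, where 254 of 8975 genes did. Of those members Mcm5 (0.22) and Mcm7 (0.27) were among the first 7. The others were Prim2, Pcna and Lig1 (0.27 ± 0.08, adjusted p = 0.026, edgeR, for Lig1). Mcm2 stood at 0.12 (adjusted p = 0.61, edgeR). Among Ccnb1-negative cells alone edgeR called 6 members, where 222 of 8891 genes passed. Of those members 5 were among the 7, with Mcm2 at 0.37 and Mcm5 at 0.32, and the other was Cdc6 (0.51 ± 0.15, adjusted p = 0.040, edgeR).

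Memory or naive B cell markers moved with clone status. Cells with at least 3 UMIs of Cd38, Ccr6, Klf2 and Fcer2a together made up 6.05%, 4.96% and 10.3% of expanded cells, against 8.2%, 7.94% and 16.3% of cells seen once. The summed level of these 4 genes was 186, 208 and 348 CPM in expanded clones and 292, 292 and 468 in cells seen once. Without the marked cells, an alternative added after seeing the data, 4 of the 7 passed by edgeR, all close to the threshold: Mcm5 (0.26 ± 0.07, adjusted p = 0.029), Rfc4 (0.37 ± 0.10, adjusted p = 0.033), Mcm2 (0.28 ± 0.08, adjusted p = 0.045) and Orc6 (0.36 ± 0.10, adjusted p = 0.048). Mcm7 stood at 0.25 ± 0.07 (adjusted p = 0.060, edgeR) and did not pass, nor did Rpa3 and Fen1. Of the 8821 genes tested under that filter 98 passed. The count depended on how the cells were marked. With cells of at least 2 UMIs of these markers left out, which were 11.8%, 12.7% and 22.6% of expanded cells and 17.4%, 15.6% and 31.0% of cells seen once, 0 members passed by edgeR, with 9 at an unadjusted p under 0.05. Of the 8689 genes tested there 50 passed. Mcm2 then stood at 0.29 ± 0.08 (adjusted p = 0.070, edgeR) and Mcm5 at 0.24 ± 0.07 (adjusted p = 0.11, edgeR). In expanded clones 12 of 25 G2 and M phase genes were higher and 0 lower by edgeR, with a median log2 fold change of 0.35. A Ccnb1 UMI was found in 9.95%, 11.5% and 9.89% of expanded cells and in 7.49%, 7.82% and 5.40% of cells seen once. Of 48 other replication genes 8 were higher and 0 lower by edgeR, with Dna2 (the nuclease-helicase, 0.54 ± 0.17), Rrm1 (0.42 ± 0.08), Tyms (thymidylate synthase, 0.38 ± 0.12), Top2a (0.36 ± 0.06) and Uhrf1 (a factor for maintenance of DNA methylation, 0.34 ± 0.08) as the largest.

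Clone size was then taken in 4 classes, and the slope per class was tested with library as a block. Clones of 2 to 3 cells held 296, 233 and 349 cells, those of 4 to 7 held 220, 197 and 249, and those of 8 or more held 228, 135 and 393. Of 39 members tested (Mcm8 and Orc1 fell below the filter), 6 rose with clone size and 0 fell by edgeR, where 4.15% of 7111 genes passed (1.36% rose and 2.78% fell). Mcm2, Mcm4, Mcm5 and Mcm7 had log2 slopes of 0.15 ± 0.03, 0.11 ± 0.03, 0.12 ± 0.03 and 0.13 ± 0.03 per class, Rfc4 one of 0.18 ± 0.04 and Fen1 one of 0.14 ± 0.04, with adjusted p between 0.0011 and 0.025 by edgeR. DESeq2 called 4 of these, Mcm2, Mcm5, Mcm7 and Rfc4, where 105 of 7111 genes passed. Without NP 1, NP 2 and OVA 1 in turn edgeR called 4, 3 and 2 members, where 176 of 6988, 167 of 7321 and 86 of 6377 genes passed.

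The rise was not even from class to class. All members together stood at 3772, 3454 and 3045 CPM in cells seen once, at 4163, 3763 and 3634 in clones of 2 to 3, at 4160, 4206 and 3350 in clones of 4 to 7, and at 4208, 4158 and 3839 in clones of 8 or more. In NP 1 the step lay between cells seen once and clones of 2 to 3, and OVA 1 dipped at 4 to 7 cells. Mcm2 had 155, 110 and 116 CPM in cells seen once, 174, 165 and 143 in clones of 2 to 3, 186, 154 and 133 in clones of 4 to 7, and 194, 135 and 190 in clones of 8 or more. Fen1 had 91.5, 94.1 and 82.2 in cells seen once and 107, 132 and 126 in clones of 8 or more, which did not overlap. Cells of 1 large clone share their ancestor, and the largest clones held 34, 30 and 42 cells.

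**Figure D4:**
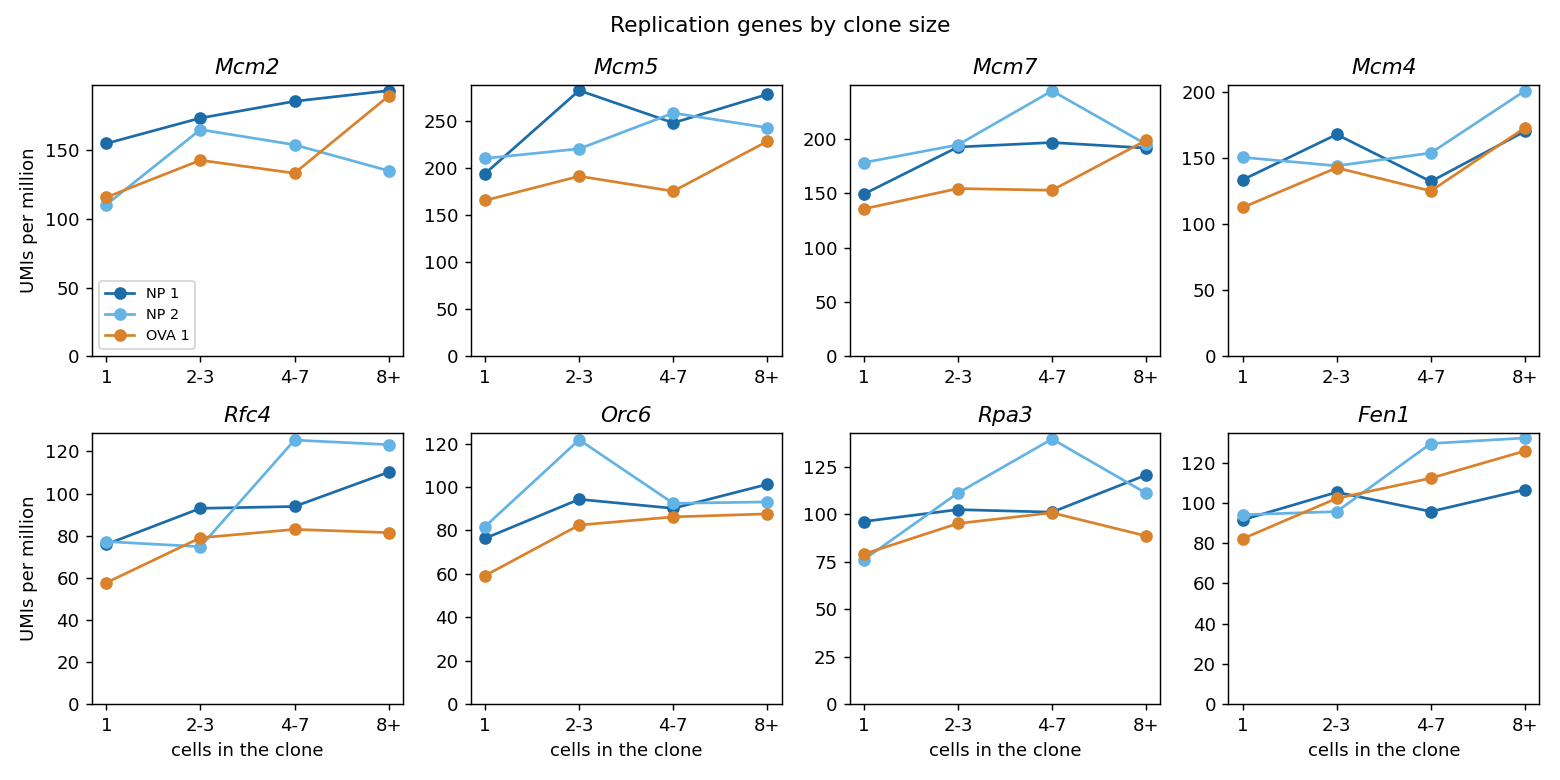
Level of 8 replication genes (CPM, from 0) in cells seen once and in clones of 2 to 3, 4 to 7, and 8 or more cells; each line is 1 library. Each gene is lower in cells seen once than in clones of 8 or more in all 3 libraries, and several lines dip between.

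NP and OVA libraries were compared last, with 1 sum per library and 1 residual degree of freedom. In both NP libraries 25 of the 41 members stood above OVA 1 and 7 below it, where 28.9% and 36.6% of all 10484 genes tested did. None passed edgeR's test, where 0.258% of genes did; 0 members had an unadjusted p under 0.05, and DESeq2 called 0, also with 0 under that level. Pcna had the largest fold, 0.57 ± 0.29 on the log2 scale (adjusted p = 0.73 by edgeR), and NP 1 lay well above NP 2. Prim1, the catalytic primase subunit, had 76.5 and 67.5 CPM in the NP libraries against 51.8 in OVA 1 (0.51 ± 0.27, adjusted p = 0.75, edgeR). Cdc6 had 42.9 and 30.8 CPM in the NP libraries against 28.2 in OVA 1 (0.42 ± 0.28, adjusted p = 0.88, edgeR). A difference of this size could not be resolved with 1 OVA library.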

How the data were processed

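Gene expression of single cells was measured in 3 libraries made with a 5′ droplet kit, per the labels. The authors deposited raw UMI counts per gene and cell, not normalized, and filtered contig tables with UMI counts per immunoglobulin chain. Cell Ranger and mm10 are named in the submitters' processing notes, with no version. No gene in the table was seen in fewer than 3 cells, and the shallowest cell had 498 UMIs.

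Cells with at least 500 genes and at most 10% mitochondrial UMIs were thinned to 2500 UMIs each with 1 fixed seed, and classes were called from the thinned counts. Counts were summed per library and class after removing 225 immunoglobulin genes and the genes that define the classes. Sums were tested with edgeR 4.0.16 (quasi-likelihood test, TMM, filterByExpr, library as a block, Benjamini-Hochberg over all genes tested) in R 4.3.3, checked on simulated counts, with an adjusted threshold of 0.05. SE is the absolute log2 fold change divided by the square root of F. Alternatives were DESeq2 1.42.0, other size factors, no filter, no block, all UMIs, stricter cells and classes, and each library left out. Cells marked by other cell types had at least 5 UMIs of myeloid, T cell or erythroid markers. Python 3.11.15 with numpy 2.4.6 did the rest. The blocks are the libraries themselves, since both classes of a comparison come from the same library.

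The members, gene lists and comparisons were chosen with earlier results of these data known. A fixed set of 17 members may be named in every comparison, with up to 10 members past the threshold and the 5 largest other replication genes past it; further members are named after their values were seen. The lists of memory or naive and of germinal center B cell markers are used without 1 marker each, whose result is not reported here.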

Additional observations from a re-analysis of the deposited data

Results flagged for a closer look

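Among the members that may be named in every comparison, 14 values had 1 sign in both NP libraries and the opposite sign in OVA 1. These differences between OVA 1 and the NP libraries were not tested. Antigen and gate differ together, and OVA stands on 1 library. The share of all genes with such a pattern was not computed, so the count of 14 is not a result about the members. In Ccnb1-positive over Ccnb1-negative cells the log2 ratio in OVA 1 was 0.15 for Mcm2 and 0.43 for Lig1, where both NP libraries were negative, and −0.17 for Cdc45, where both were positive. In Myc-positive over Myc-negative cells it was −0.27 for Mcm2, −0.015 for Mcm5, −0.10 for Mcm6, −7.8e-05 for Orc6 (no difference in practice), −0.37 for Pole2, −0.18 for Fen1 and −0.17 for Lig1, against positive values in both NP libraries, and 0.52 for Cdt1, against negative ones. In Cd83-high over Cxcr4-high cells it was −1.02 for Rfc3 and −1.37 for Pole2, against positive values in both NP libraries, and 0.94 for Pola1, against negative ones. None of these members passed the test of its comparison.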

How the results depend on the processing

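In Ccnb1-positive against Ccnb1-negative cells the count of members past the threshold, 3, became 0 by DESeq2, 0 with no replicate block, 0 with stricter cell filters, 11 with all UMIs and 6 with 2 or more Ccnb1 UMIs, and ranged from 0 to 3 with 1 library left out. Lig1 turned to −0.26 with all UMIs. For Myc the count of 0 became 1 with all UMIs (Rpa2, higher) and 1 with 2 or more Myc UMIs (Mcm7, lower). With 2 or more Myc UMIs the members' median turned to −0.31 from 0.11, and the median of all genes tested moved to −0.19 from −0.02. For clones of 2 or more the count of 7 became 0 by DESeq2, 0 with no replicate block, 4 with stricter cell filters, and 4, close to the threshold, or 0 without cells with at least 3 or at least 2 UMIs of memory or naive markers, so that it depends on how these cells are marked, and ranged from 0 to 5 with 1 library left out. For the clone size slope the count of 6 became 0 with no replicate block, 2 with stricter cell filters and 2 or 0 without memory or naive marked cells (at least 3 or at least 2 UMIs), and ranged from 2 to 4 with 1 library left out. The cause of these changes was not tested. Other size factors, no low-count filter and another thinning draw kept these counts within 1.5 times, but the draw shared only 2 of 7 calls for clones and 3 of 6 for the slope. For Ccnb1 the draw called Mcm3 in place of Mcm6. For the zone classes, NP against OVA and the interaction the count was 0 under each alternative run, and NP against OVA allows neither a block nor a library left out. Of 1487 values of 114 named results, 1225 kept direction and call, 105 lost a call and 18 gained one. A further 138 changed sign without a call on either side, and 1 changed sign with a call. Most of the named results had not passed, and a value that stayed short of the threshold counts as kept. Members past the threshold kept their call in only 3 to 10 of the 13 to 15 alternatives run for each. Another thinning draw and the filters on memory or naive markers were added after seeing the data. Over all genes the count called for Ccnb1 moved to 432 by DESeq2, 196 with no replicate block and 2619 with all UMIs, against 1067, and for clones to 56 and 0 under the first pair of these, against 280. With stricter cell filters it was 755 for Ccnb1, 176 for clones and, for the slope, 172 against 295. Without memory or naive marked cells (at least 3 or at least 2 UMIs) it was 98 or 50 for clones and 123 or 51 for the slope. Depth limits the rarest members: Orc1 and Mcm8 had few UMIs in any class.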
